A study of Mus musculus with 22 samples.

Results

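RNA pulled down with phosphorylated ribosomes was compared with the total RNA of the same tissue lysate in 4 MCH-hM3Dq mice, which gave 8 of the 22 libraries analysed here. The phosphoTRAP libraries (IP) were made with an antibody to the ribosomal protein S6 phosphorylated at serines 244 and 247, and the input libraries from a portion of the lysate taken ahead of the pulldown. The tissue was the arcuate nucleus with the median eminence, at the base of the hypothalamus. The hM3Dq mice carried the genotype label MCH-hM3Dq on a C57BL/6N background and were 10 to 13 weeks old. hM3Dq is an engineered muscarinic receptor that excites a neuron when its ligand, clozapine N-oxide (CNO), is given. The 7 control mice, labelled control at the genotype and matched in background and age, gave the other 14 libraries and are used below for values side by side. Mice of both genotypes were fasted for 12 h and received CNO by intraperitoneal injection 1 h before collection, so neither group was fed and neither was without CNO. The series' design names 5 hM3Dq mice, and those numbered 1, 3, 4 and 5 are analysed here. The labels name neither the promoter that drives the receptor nor what the control mice carry, and the antibody binds phosphorylated S6 of any cell in the lysate, whether or not it holds the receptor. Neurons that make melanin-concentrating hormone (MCH) have their cell bodies mainly in the lateral hypothalamus and zona incerta, which the tissue label does not name. The mRNA of the MCH precursor (Pmch) was nevertheless measured in the input of every mouse, as given below.

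S6 is a protein of the small ribosomal subunit whose tail is phosphorylated by S6 kinase, downstream of the kinase complex mTORC1, and by kinases downstream of ERK. Neuronal activity raises this phosphorylation, so a pulldown of phosphorylated S6 enriches ribosome-bound RNA of active cells. RNA that sits on no cytosolic ribosome, such as nuclear or mitochondrial transcripts, is not its target. A separate group, the terminal oligopyrimidine (TOP) mRNAs, encodes the ribosomal proteins and several translation factors. TOP mRNAs start with a C and a run of pyrimidines, through which their loading on ribosomes is tied to mTORC1.

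The sequences around the transcription start of 10 genes are shown because most ribosomal protein mRNAs, the main TOP family, were lower in the IP. Each run holds the 10 bases before the annotated RefSeq start (GRCm38.p6) and the first 20 transcribed bases, 5′ to 3′ on the gene's strand, with the longest run of C and T in capitals.
Rps12, a small-subunit protein gene lower in the IP, chr10:23787190-23787219, minus strand: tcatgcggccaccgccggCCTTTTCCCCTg
Rps27, a small-subunit protein gene lower in the IP, chr3:90213629-90213658, minus strand: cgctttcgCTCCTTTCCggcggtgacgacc
Rpl13a, a large-subunit protein gene lower in the IP, chr7:45128726-45128755, minus strand: cctgcgacaagaCCTCCTCCTTTCCCaggc
Rps21, a small-subunit protein gene lower in the IP, chr2:180257369-180257398, plus strand: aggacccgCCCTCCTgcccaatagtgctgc
Rpl24, a large-subunit protein gene that was not called, chr16:55966265-55966294, plus strand: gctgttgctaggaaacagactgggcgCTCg
Gas5, a noncoding host of small nucleolar RNAs lower in the IP, chr1:161035156-161035185, plus strand: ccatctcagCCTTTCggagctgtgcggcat
Snhg8, a noncoding host of a small nucleolar RNA lower in the IP, chr3:123508317-123508346, minus strand: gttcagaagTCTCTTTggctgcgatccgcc
Eef1b2, an elongation factor gene lower in the IP, chr1:63176821-63176850, plus strand: ctgcagTTCCgccggaagtagccgaggcct
Eef1a2, an elongation factor gene higher in the IP, chr2:181156996-181157025, minus strand: cctggtctgcgTTCTCgctcactggttctc
Nlgn2, a synaptic adhesion gene higher in the IP, chr11:69837765-69837794, minus strand: gCCgcgcggtgacgcgcggggctgctgcgg
The 10 genes are examples, and their run lengths do not compare called with uncalled genes. For a gene with several annotated starts, the one with the longest run nearby is shown. The longest run spanned 14 bases in Rpl13a, 11 in Rps12, 9 in Rps27, 7 in Rps21 and 3 in Rpl24. It spanned 5 in Eef1a2 and 2 in Nlgn2. Among the other genes lower in the IP it spanned 7 in Snhg8, 6 in Gas5 and 4 in Eef1b2, the last of these shorter than in Eef1a2, which was higher. An annotated start can lie some bases from the one used in this tissue, so these windows describe the annotation and not the ends of the RNA that was sequenced.

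The values were FPKM (fragments per kilobase of transcript, scaled to library size), normalized by the authors, with the read depth unknown. Between 12653 and 12972 of 17440 genes reached 1 FPKM in each of the 8 libraries. Across the genes tested, log2(FPKM + 1) correlated between libraries of the same fraction with r of 0.918 to 0.965, and between the IP and the input of the same mouse with r of 0.911 to 0.946. The summed FPKM was 460677, 446679.9, 441639.7 and 428526 in the inputs of mice 1, 3, 4 and 5 and 392283, 411367, 393223 and 392684 in their IPs, lower in the IP of every mouse. The 7SK RNA alone held 7.88% to 8.69% of the summed FPKM of the inputs, against 0.018% to 0.0842% of the IPs. The median gene tested lay at a log2 fold change of 0.03, so the values below are close to changes relative to the typical gene.

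Of the 12987 genes with at least 1 FPKM in 4 or more of the 8 libraries, 1338 differed between the fractions, of which 702 rose and 636 fell in the IP (limma with the mouse as a block, Benjamini-Hochberg adjusted p under 0.05, two-sided). These are 10.3% of the genes tested, 5.41% higher and 4.9% lower, and they are the background for each group below. Nearly every called gene moved the same way in each mouse: 697 of the 702 were higher in 4 of 4 mice and 633 of the 636 lower in 4 of 4. The IP and input values of a gene did not overlap, with the IP above, for 1015 genes tested (7.82%), and with the IP below for 861 (6.63%); 511 and 521 of these were called. The losses were the larger changes. By at least 1 on the log2 scale, 171 genes rose and 289 fell, and by at least 2, 3 rose and 53 fell. The calls depended on the number of mice. With 1 mouse left out, the count was 575 without mouse 1, 599 without mouse 3, 706 without mouse 4 and 836 without mouse 5, and 414 genes (158 higher, 256 lower) were called in each of these 4 fits. Other choices lowered it as far: to 739 without the mouse as a block, 592 without the intensity trend, 552 without the filter and 527 in 1 fit of all 22 libraries. The balance of gains and losses moved with the setting as well. More genes fell than rose with median-ratio rescaling (581 higher, 691 lower), without the trend (242 and 350), without the filter (233 and 319), without the mouse as a block (327 and 412), in 1 fit of all libraries (245 and 282) and without mouse 1 (234 and 341), mouse 3 (236 and 363) or mouse 4 (325 and 381). The p-values measure the spread between these 4 mice.

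**Figure D1:**
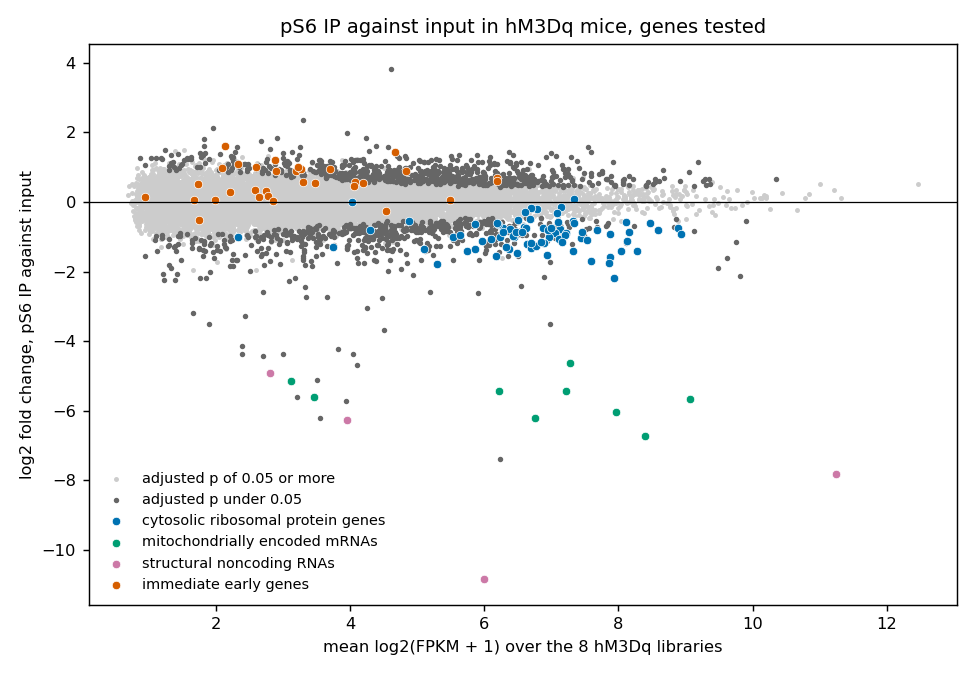
Mean log2(FPKM + 1) of the 8 libraries of hM3Dq mice (horizontal axis) against the log2 fold change of IP over input (vertical axis), 1 point per gene tested, with called genes in dark grey and the immediate early, ribosomal protein, mitochondrial and structural RNA groups in colour, called or not. The 636 genes called lower reach below −10, while 3 of the 702 called higher lie above 2.

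The tested RNAs made by RNA polymerase III were strongly depleted in the IP. Bc1 (ENSMUSG00000115783, chr7:144914470-144914637, plus strand), a short neuronal RNA that represses translation initiation, was measured at 3672, 3964, 2350.0 and 1671 FPKM in the inputs of mice 1, 3, 4 and 5 and at 0, 0.76, 0 and 1.76 FPKM in their IPs. It is thus listed at 0 in the IPs of mice 1 and 4, and the log2 fold change of −10.86 (SE 0.335, adjusted p = 1.08e-07, limma) is bounded by the pseudocount of 1 FPKM. The 7SK RNA (Rn7sk, ENSMUSG00000065037, chr9:78175303-78175633, minus strand), which holds the elongation kinase P-TEFb inactive in the nucleus, was at 37217, 36319, 38388 and 33762 FPKM in the inputs and 111, 346, 70.6 and 246 FPKM in the IPs. Its IP values did not come near its input values in any mouse, with a log2 fold change of −7.81 (SE 0.335, adjusted p = 9.13e-07, limma). Rmrp, the RNA of the nucleolar RNase MRP, fell by 6.26 on the log2 scale, and Rn7s1, a copy of the signal recognition particle RNA, by 4.91. All 4 tested RNAs of this kind fell, of 13 listed, at a median of −7.04. Rmrp and Rn7s1 missed the filter without mouse 3 and Bc1 without mouse 5, and each was called with each of the other mice left out. Ccnb1ip1, annotated as a protein needed for meiotic crossovers, fell by 7.41 (adjusted p = 2.61e-07, limma), but its locus overlaps Rpph1, the RNA of RNase P, on the same strand, and the counting may have split reads between them. Bc1 in the control mice differed by −9.50 and 7SK by −5.84.

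Several nuclear RNAs of other kinds fell, by less. Of 6 long nuclear noncoding RNAs tested, 4 fell and none was called higher (median −1.20). Without mice 1, 3, 4 and 5, 2, 2, 3 and 3 were called lower. The summed FPKM of the list ranged from 308 to 1501 in the inputs and from 322 to 1271 in the IPs, so these ranges overlapped widely. Neat1, the scaffold of nuclear paraspeckles, was at 3.87, 13.2, 2.64 and 3.7 FPKM in the inputs and 0.819, 2.75, 0.593 and 1.12 FPKM in the IPs. Its groups overlapped, although each IP was below its own input, with a log2 fold change of −1.42 (adjusted p = 0.00913, limma). Scarna2, a guide RNA of the nuclear Cajal body that missed the filter without mouse 4, fell by 3.29 and Miat, a nuclear noncoding RNA of neurons, by 1.10; Miat was not called with any single mouse left out (adjusted p of 0.0598 to 0.103). By annotated class, 12 of 32 small RNAs fell and 3 rose, 29 of 292 long intergenic noncoding RNAs fell and 10 rose, and 518 of 11413 protein-coding genes fell and 639 rose.

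The mitochondrial genome's own mRNAs, which are translated on mitochondrial ribosomes that lack S6, were depleted in the IP of every mouse. All 9 tested of 13 listed fell, at a median log2 fold change of −5.62, against 0.03 for all genes. For mt-Nd1, a subunit of respiratory complex I, FPKM in the inputs of mice 1, 3, 4 and 5 was 3926, 6749.7, 2728 and 2042, and in the IPs 55, 80.1, 16.1 and 13.4. For mt-Co1, the catalytic subunit of complex IV, it was 4035, 7524, 3119 and 2258 in the inputs and 201, 173, 30.4 and 27.8 in the IPs. Both were far lower in each IP, by 6.74 and 5.67 on the log2 scale (adjusted p = 1.08e-07 and 5.61e-06, limma). Together these mRNAs made up 3.12, 5.56, 2.26 and 1.68% of the summed FPKM of the 4 inputs and 0.121, 0.123, 0.0257 and 0.0204% of the 4 IPs, so that the remainder in the IPs of mice 1 and 3 was several times that of mice 4 and 5. The other members fell by 4.63 (mt-Nd5) to 6.21 (mt-Nd2), and the mitochondrial transfer RNA mt-Tm by 4.38. The nuclear genes of the same respiratory complexes, translated in the cytosol, did not follow: of 69 tested, 2 rose (Ndufs1 and Ndufs5 of complex I), 1 fell (Cox8a of complex IV), and the median was −0.06. Without any single mouse Cox8a was not called (adjusted p of 0.0603 to 0.143), and Ndufs5 was not called without mouse 3 (0.0568). Proteins of the mitochondrial ribosome, also nuclear-encoded, gave 1 higher and 1 lower of 74. Among 20 unprocessed pseudogenes tested, 7 fell, and 6 of those 7 shared at least 50% of their 25-base words with mitochondrial RNA, against 0 of the 13 that were not called, so their values cannot be told apart from those of the mitochondrial transcripts.

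The cytosolic ribosomal protein mRNAs fell together. Of 80 tested, 69 were lower in the IP and none higher, at a median log2 fold change of −0.94. The small subunit gave 32 of 33 (median −1.03) and the large subunit 37 of 47 (median −0.86). Rps29 (ENSMUSG00000034892, chr12:69157722-69159186, minus strand), a zinc-binding protein of the small subunit, was at 395, 577, 687 and 485 FPKM in the inputs of mice 1, 3, 4 and 5 and 115, 158, 68.5 and 133 FPKM in the IPs. Rps12, whose start is shown above, was at 92.1, 62.6, 62.4 and 73.2 FPKM in the inputs and 25.4, 18, 13.2 and 26.5 FPKM in the IPs. For both, the lowest input lay above the highest IP, and the log2 fold changes were −2.20 (SE 0.235, adjusted p = 0.000778, limma) and −1.79 (SE 0.155, adjusted p = 0.000197). Rpl13a of the large subunit was at 429.8, 263, 396 and 315 FPKM in the inputs and 116, 105, 100.0 and 102 FPKM in the IPs, again without overlap (−1.70, adjusted p = 0.000134, limma).

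The mRNA of S6 itself (Rps6), the protein the antibody recognises, was at 172, 187, 263 and 188 FPKM in the inputs and 120.3, 122, 130.4 and 149 FPKM in the IPs, and fell by 0.62, less than the median of its family (adjusted p = 0.0227, limma). Leaving out mouse 1, 3 or 4 ended that call, at adjusted p of 0.0588, 0.0806 and 0.0905. With 1 mouse left out, 63, 59, 61 and 64 ribosomal protein mRNAs were called lower for mice 1, 3, 4 and 5 in turn. A few members stood apart from the rest: Rpl24 had a log2 fold change of −0.13 (adjusted p = 0.516, limma) and Rpl36al, a close relative of Rpl36a, 0.10 (0.643). Many ribosomal protein genes have near-identical processed pseudogenes, and how the authors' counting split such reads is not given in the sources used here. Of 36 processed pseudogenes that fell, 23 shared at least 50% of their 25-base words with ribosomal protein mRNAs, against 70 of 540 not called and 1 of 13 that rose. In the control mice, 45 of these mRNAs fell and none rose (median −0.75), where 2.61% of 13999 genes were called lower. The IP of control mouse 5 stood apart. Ribosomal protein mRNAs held 4.64% of its summed FPKM, against 1.68% to 2.24% in the other control IPs. Its median r with those IPs was 0.880. It is kept in all control values given here.

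The pyrimidine run described above was searched in all promoters that RefSeq gives for the genes tested, as at least 8 consecutive C or T on the gene's strand between 10 bases before and 50 bases after the start. It was found in 44 of 59 ribosomal protein genes with a sequence (74.6%) and in 2036 of 8993 other protein-coding genes (22.6%). Of the ribosomal protein genes called lower, 37 of 49 held it (75.5%), a share close to that of the whole family. Outside the ribosomal protein genes the run did not mark the genes that fell: it was present in 23.9% of those called lower, 31.3% of those called higher and 22.1% of those not called. These shares are a description of the annotated starts.

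Among the other parts of the translation machinery, elongation factor mRNAs moved in both directions. Eef1b2, the nucleotide exchange factor of elongation factor 1, was at 171, 136, 98.4 and 129 FPKM in the inputs and 56.6, 68.7, 48.4 and 55 FPKM in the IPs and fell by 1.19 (adjusted p = 0.00124, limma). Eef1g, another subunit of that complex, fell by 1.11, and Eif4a2, a helicase of the cap-binding complex, by 1.16. The opposite was measured for Eef1a2, the form of elongation factor 1A that replaces Eef1a1 in mature neurons, at 82.4, 101, 134 and 106 FPKM in the inputs and 164, 227, 227 and 194 FPKM in the IPs. Its IP exceeded its input in every mouse without overlap of the groups, by 0.94 (adjusted p = 0.00216, limma). Eef1a1 itself fell by 0.54 (adjusted p = 0.0477, limma), a call that ended without mouse 3, 4 or 5 (0.115, 0.158 and 0.196). Eif3c, a core subunit of initiation factor 3, rose by 0.77, and Larp1, the protein that binds the start of TOP mRNAs, by 0.78 (adjusted p = 0.0136, limma; 0.0616 without mouse 1 and 0.0675 without mouse 3). In all, 5 of 44 translation factors rose and 8 fell, and 3, 2, 2 and 3 rose and 6, 5, 6 and 5 fell without mice 1, 3, 4 and 5.

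Noncoding genes whose introns hold small nucleolar RNAs, and whose spliced RNAs are rapidly degraded when ribosomes translate them, fell in 7 of 15 cases, and none rose (median −0.81). Gas5, host to a series of such RNAs, was at 2075, 1986, 1681 and 1809 FPKM in the inputs and 529.5, 374, 294 and 602 FPKM in the IPs. Snhg8 was at 94.9, 64, 37.2 and 69 FPKM in the inputs and 17.3, 12.5, 9.74 and 17.1 FPKM in the IPs. Neither gene's IP values overlapped its input values, and they fell by 2.12 and 2.11 (adjusted p = 0.000117 and 5.73e-05, limma), as did Zfas1, a host gene beside Znfx1, by 1.99 (0.00234). Protein-coding genes with an annotated small nucleolar RNA inside made up 7.14% of those that fell, 2.82% of those that rose and 1.64% of those not called. Of the 37 that fell, 28 were ribosomal protein genes, and without these the share was 2%. Whether reads of the small RNAs entered these genes' FPKM was not tested.

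mRNAs of ferritin, the iron store whose translation is held back by iron regulatory proteins at low iron, fell strongly. Fth1, the heavy chain, was at 1128, 1599, 1398 and 1465 FPKM in the inputs of mice 1, 3, 4 and 5 and 385, 365, 417 and 312 FPKM in the IPs. Ftl1, the light chain, was at 163, 153, 165 and 135 FPKM in the inputs and 60.6, 55.5, 61.3 and 35.5 FPKM in the IPs. Both were lower in every IP than in any input, by 1.91 and 1.54 on the log2 scale (adjusted p = 9.36e-05 and 0.000202, limma), and both were called with each mouse left out in turn. In the control mice the same mRNAs differed by −2.26 and −1.45. Other short, abundant mRNAs fell as well: Selenow, a small selenoprotein, by 2.41, and the metallothionein Mt2, which binds zinc and copper, by 0.84 (adjusted p = 0.000128 and 0.004, limma). Some long transcripts were also far lower in the IP. Ankrd12, a nuclear ankyrin-repeat protein, was at 386, 398, 472 and 446 FPKM in the inputs and 43.3, 39.9, 32.8 and 30.1 FPKM in the IPs, and fell by 3.52 (adjusted p = 9.77e-07, limma). Nrsn1, a vesicle membrane protein of neurons, fell by 2.63, Cep112, a centrosomal protein, by 3.05, Ids, a lysosomal sulfatase, by 2.15, and Spop, a ubiquitin ligase adaptor, by 1.62. Selenow, Ankrd12, Nrsn1, Cep112, Ids and Spop, and Scarna2 above, were chosen after their values were seen.

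Some of the genes that neurons switch on within minutes of activity rose in the IP. Of 32 immediate early genes tested, 13 rose and none fell, at a median log2 fold change of 0.56, where 5.41% of all genes were called higher. Among the AP-1 transcription factors, 4 of 5 tested rose. Fosb (ENSMUSG00000003545, chr7:19302696-19310051, minus strand) was at 1.33, 0.765, 2.5 and 1.82 FPKM in the inputs of mice 1, 3, 4 and 5 and 8.25, 3.41, 8.47 and 7.94 FPKM in the IPs. Jun (ENSMUSG00000052684, chr4:95049034-95052222, minus strand), the partner of the Fos proteins, was at 15.8, 13.7, 16.5 and 12.3 FPKM in the inputs and 56.8, 38.5, 44.1 and 28.1 FPKM in the IPs. Both genes had each IP value above each input value, with log2 fold changes of 1.60 (SE 0.243, adjusted p = 0.00417, limma) and 1.43 (SE 0.162, adjusted p = 0.00102), and both were called with each mouse left out. Junb, at 1.47, 2.18, 4.25 and 2.33 FPKM in the inputs and 6.98, 4.13, 7.97 and 6.85 FPKM in the IPs, rose by 1.10 with overlapping groups (adjusted p = 0.0276, limma), and Fosl2 rose by 0.94 (0.0175). Fos, at 3.62, 6.05, 9.95 and 5.53 FPKM in the inputs and 14.4, 8.25, 13.7 and 14 FPKM in the IPs, was higher in the IP of 4 of 4 mice, with a log2 fold change of 0.94, and missed the threshold (adjusted p = 0.0505, limma).

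The activity-dependent nuclear receptor Nr4a3 was at 4.59, 2.95, 5.82 and 2.51 FPKM in the inputs and 16.5, 6.15, 12.6 and 8.13 FPKM in the IPs, with no overlap, and rose by 1.22 (adjusted p = 0.0106, limma). The zinc-finger factors Egr3 and Egr1 rose by 0.89 and 0.60. Of the effector genes, Arc, which carries glutamate receptors away from the synapse, was at 2.12, 1.73, 1.77 and 2.61 FPKM in the inputs and 4.16, 3.46, 4.92 and 8.55 FPKM in the IPs, with no overlap, and rose by 0.98 (adjusted p = 0.0351, limma). Homer1, a postsynaptic scaffold with an activity-induced short form, rose by 0.91, Vgf, a granule peptide precursor, by 1.01, Trib1, a pseudokinase, by 0.99, and Spred1, an inhibitor of ERK signalling, by 0.70. With mice 1, 3, 4 and 5 left out in turn, 2, 6, 6 and 5 genes of the list were called higher, and Fosb and Jun were those called in all 4 fits. Without mouse 1 the adjusted p was 0.0609 for Nr4a3, 0.116 for Junb and 0.0807 for Arc. In the control mice 8 immediate early genes rose and none fell, where 2.23% of genes were called higher, at a median of 0.64; Fosb differed by 1.69 and Jun by 1.25 there. The test of the difference between genotypes, across 14582 genes, called none of them.

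**Figure D2:**
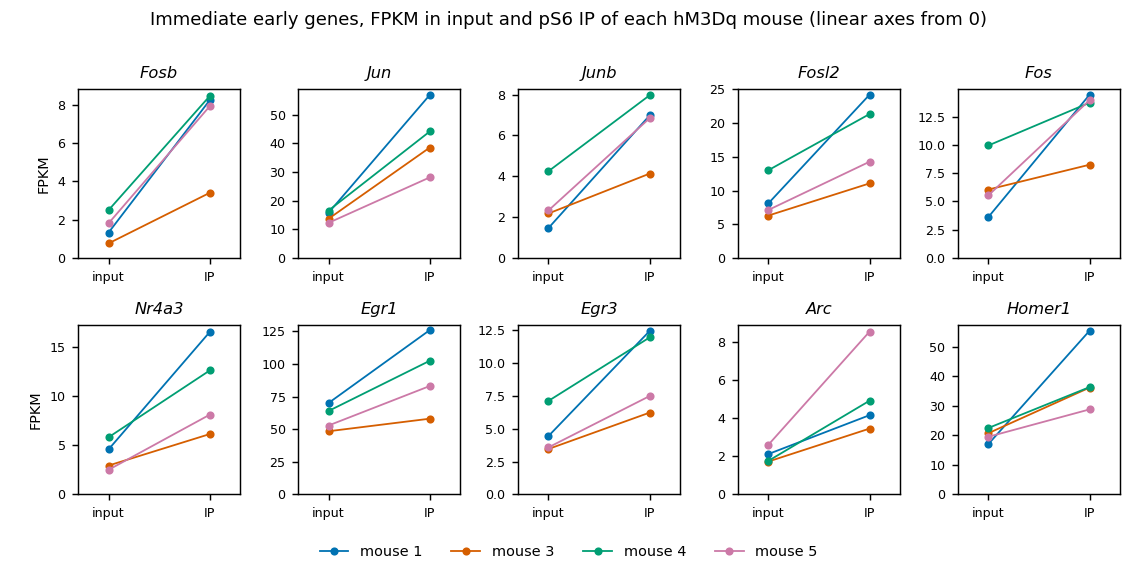
FPKM of immediate early genes in the input and the IP of the 4 hM3Dq mice, on linear axes from 0, with a line joining the libraries of each mouse. Each line of Fosb and Jun rises from input to IP, and the lowest IP value of Jun (28.1 FPKM) lies above its highest input value (16.5 FPKM).

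Part of the response of immediate early genes to activity passes through CREB, which binds cyclic AMP response elements. The matches to the core CGTCA of that element (TGACG on the other strand) nearest the start are shown for 4 of these genes (RefSeq, GRCm38.p6). The 4 are examples taken from the genes that hold a match, and Fos among them was not called. Each run is 30 bases on the gene's strand, with the match in capitals.
Fosb, match starting 60 bases before the start, chr7:19310088-19310117, minus strand: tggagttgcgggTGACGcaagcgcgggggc
Fos, match starting 66 bases before the start, chr12:85473812-85473841, plus strand: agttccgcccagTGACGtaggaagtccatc
Junb, match starting 106 bases before the start, chr8:84978837-84978866, minus strand: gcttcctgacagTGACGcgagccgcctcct
Nr4a3, match starting 147 bases before the start, chr4:48045146-48045175, plus strand: ctgtggcataaaTGACGtgccgagagagcg
CGTCA was searched on both strands in the 250 bases before the start. It was found in 15 of 23 immediate early genes with a sequence, in 5347 of 27025 RefSeq promoters (19.8%) and in 31.1% of tested genes. Over the tested genes the share did not follow the calls: 32.9% of genes called higher, 31.1% of those called lower and 30.9% of those not called held it. The full palindrome TGACGTCA, which contains CGTCA, was in 3 of the 23, in 3.13% of tested genes and in 1.77% of all promoters. Of the immediate early genes called higher, 8 had a sequence, of which 5 held CGTCA and 0 the full palindrome. A match describes letters and not a bound site.

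Several genes of adhesion proteins that join the faces of the synapse were higher in the IP. Of 29 neurexins, neuroligins, teneurins and related genes tested, 9 rose and 1 fell, at a median of 0.46. Nlgn2 (ENSMUSG00000051790, chr11:69823122-69837784, minus strand), the neuroligin of inhibitory synapses, was at 3.51, 4.41, 9.02 and 13.7 FPKM in the inputs of mice 1, 3, 4 and 5 and 30.8, 37.8, 27.4 and 24.6 FPKM in the IPs. Its inputs ranged widely, those of mice 1 and 3 lying well below those of mice 4 and 5, yet each IP was above all of them, and it rose by 1.99 (SE 0.325, adjusted p = 0.00602, limma). Nrxn3, a presynaptic neurexin, was at 21.1, 24.1, 19.6 and 35.4 FPKM in the inputs and 64.5, 61.8, 60.2 and 49.8 FPKM in the IPs, and rose by 1.24 (adjusted p = 0.00509, limma). Adgrl3, a latrophilin that binds teneurins, rose by 1.14, Lrfn5, a postsynaptic partner of presynaptic phosphatases, by 1.04, and Cntnap2, which clusters potassium channels along the axon, by 0.87. Tenm3, a teneurin, fell by 1.92 (adjusted p = 0.000975, limma), from 46.2, 72.5, 50.6 and 41.5 FPKM in the inputs to 17.8, 14.2, 7.89 and 13.7 FPKM in the IPs. With 1 mouse left out, 5, 6, 7 and 5 adhesion genes were called higher for mice 1, 3, 4 and 5. The same list in control mice gave 2 higher and 1 lower, at a median of 0.26; Nlgn2 differed by 0.68 there (adjusted p = 0.237, limma), and the difference between genotypes was not called (adjusted p = 0.999).

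Scaffolds of the postsynaptic density gave 8 higher and none lower of 32 tested (median 0.37). Dlg2, which anchors glutamate receptors and potassium channels, was at 67.3, 79.5, 97.1 and 141 FPKM in the inputs and 179, 149.5, 171 and 211 FPKM in the IPs, without overlap, and rose by 0.92 (adjusted p = 0.00582, limma). Dlgap2, a partner of the Dlg proteins, rose by 0.91 and Cask, a kinase-like scaffold bound to neurexins, by 0.63. Left-out mice changed this list strongly: 1, 3, 3 and 5 scaffolds were called higher without mice 1, 3, 4 and 5. The receptor subunits the scaffolds hold showed no such count, with 1 of 27 glutamate receptor genes higher (Cacng2, an auxiliary subunit of AMPA receptors, by 0.84) and 1 lower (Cnih2, another, by −1.03). Of 19 GABA and glycine receptor genes none rose and Gabre, the epsilon subunit, fell by 0.93. Without mouse 1, and likewise without mouse 3, Cacng2 was not called (adjusted p = 0.0864 and 0.094, limma), and Gabre was not called without any of the mice (0.0784 to 0.117).

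Potassium channels, which set how a neuron fires and repolarises, gave 8 higher and 1 lower of 47 (median 0.24). Kcnc1, the Kv3.1 subunit of fast-spiking neurons, was at 10.2, 15.7, 7.05 and 11.2 FPKM in the inputs of mice 1, 3, 4 and 5 and 35, 48.9, 26.2 and 20.9 FPKM in the IPs. Kcna4, the Kv1.4 subunit of rapidly inactivating current, was at 3, 9.62, 5.11 and 2.64 FPKM in the inputs and 12.3, 43.4, 10.3 and 10.1 FPKM in the IPs. All IP values of both genes lay above all input values, with log2 fold changes of 1.47 (adjusted p = 0.00212, limma) and 1.57 (0.00386). Kcna1, a Kv1 subunit of axons, rose by 1.21, and the inward rectifiers Kcnj12 and Kcnj3, the second of which is opened by G proteins, by 1.38 and 1.04. Kcnn2, a calcium-activated channel of the afterhyperpolarisation, went the other way, from 13.2, 27.4, 17.3 and 11.9 FPKM in the inputs to 4.93, 9.46, 2.91 and 2.85 FPKM in the IPs, and fell by 1.67 (adjusted p = 0.00224, limma). With mice 1, 3, 4 and 5 left out, 4, 4, 6 and 5 potassium channel genes were called higher; Kcnj12 was lost without mouse 1 (adjusted p = 0.0616) and missed the filter without mouse 3. In control mice none of the list was called higher and 1 lower (median 0.15), and Kcna4 differed by 0.11. The difference between genotypes was not called for Kcna4 (adjusted p = 0.999, limma). Of 31 sodium and calcium channel genes, 2 rose and 2 fell, the latter being Nalcn, the sodium leak channel, by 1.10, and its partner Unc79, by 1.14. Nalcn was not called without mouse 1 or 3 (adjusted p = 0.0642 and 0.0781, limma), nor Unc79 without mouse 3 (0.0511).

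Some general neuronal genes rose, by smaller amounts. Of 18 pan-neuronal genes, 5 rose and none fell (median 0.38). Of 51 genes of the vesicle cycle, 6 rose and none fell (median 0.22). Over all genes tested, 5.41% were called higher and 10.3% in either direction. Syt1, the calcium sensor of fast release and a member of both lists, was at 59.5, 83.5, 57.9 and 72.2 FPKM in the inputs and 103, 134, 99.5 and 106 FPKM in the IPs, without overlap, and rose by 0.69 (adjusted p = 0.00824, limma). Rbfox3, the splicing factor known as NeuN, rose by 0.70 and Elavl2, an RNA-binding protein of neurons, by 0.66. Without mice 1, 3, 4 and 5, 2, 1, 2 and 1 genes of the vesicle list and 2, 1, 2 and 3 of the pan-neuronal list were called higher, and without mouse 5 1 pan-neuronal gene was called lower. Of 18 genes of peptide processing and dense-core granules, 4 rose and 2 fell, and 0, 0, 1 and 0 were called higher without mice 1, 3, 4 and 5. Pcsk2, which cuts peptide precursors, rose by 0.76, and Chgb, a granin, by 0.54, whereas Pcsk1n, the inhibitor of a related protease, fell by 1.33 and Cpe, which trims peptide ends, by 0.70. Pcsk1n was called with each mouse left out; the calls of Pcsk2 and Chgb ended without any single mouse (adjusted p of 0.0586 to 0.11 and 0.0777 to 0.131, limma), and that of Cpe without mouse 1, 3 or 5 (0.101, 0.0794 and 0.0948). Of 31 kinesin and dynein motor genes, 3 rose, among them Kif3c by 0.88, and 1 fell, Kif5a, the neuronal conventional kinesin, by 0.59 (median 0.07, 1, 1, 2 and 2 called higher without mice 1, 3, 4 and 5); without mouse 3, 4 or 5 Kif5a was not called (0.1, 0.061 and 0.0622).

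**Figure D3:**
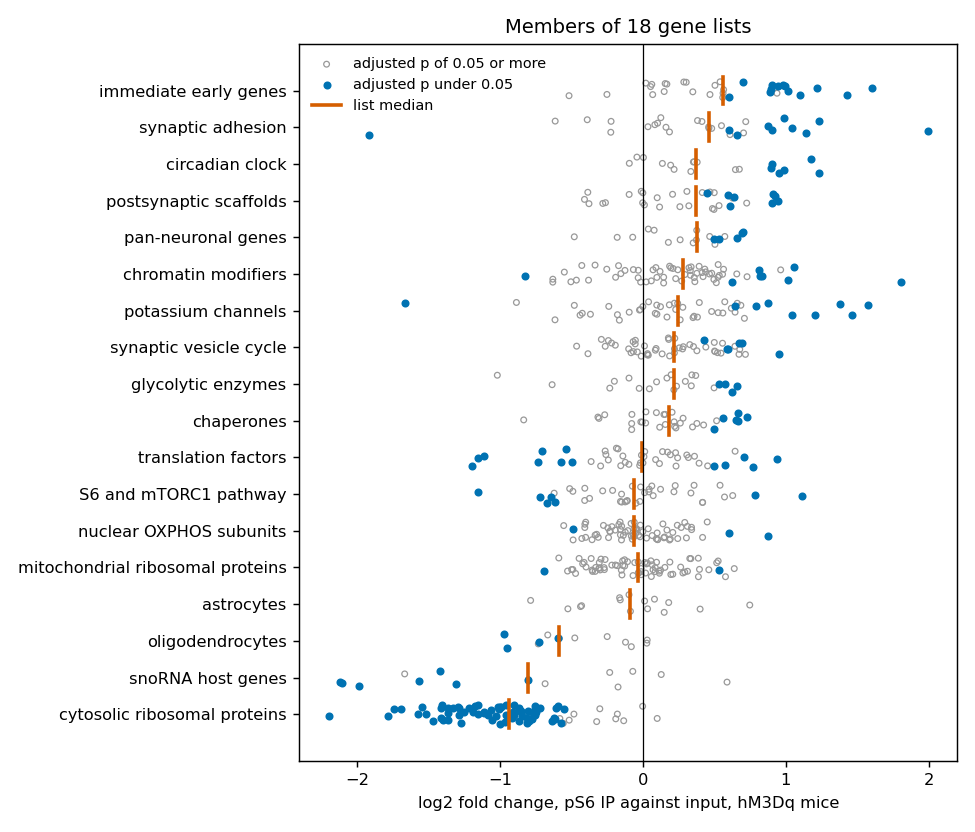
Log2 fold change of IP over input in hM3Dq mice for each tested gene of the lists shown, with filled points for adjusted p under 0.05, open points for the others and orange bars at the list medians. Ribosomal protein and small nucleolar RNA host genes lie lowest, at medians of −0.94 and −0.81, and the immediate early genes highest, at 0.56.

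Of 18 genes of the circadian clock, 6 rose and none fell (median 0.37). Dbp, a clock output factor, was at 11.3, 13.2, 15.2 and 18.2 FPKM in the inputs of mice 1, 3, 4 and 5 and 35.8, 40.5, 32.3 and 27 FPKM in the IPs, without overlap, and rose by 1.18 (adjusted p = 0.00725, limma). Rorb, a retinoid-related receptor of the clock, was at 28.3, 47.4, 21 and 24.1 FPKM in the inputs and 79.5, 107, 61.5 and 43.3 FPKM in the IPs. Each IP of Rorb was above its own input though the groups overlapped, and it rose by 1.23 (adjusted p = 0.00166, limma). Bhlhe40, a repressor of the clock that activity also induces, rose by 0.99, Nr1d1, the repressor REV-ERB alpha, by 0.95, Rora, its activating counterpart, by 0.90, and Per1, which is on the immediate early list as well, by 0.90. Without mice 1, 3, 4 and 5, 3, 4, 5 and 4 were called higher; Per1 kept its call without mouse 3 alone, and its adjusted p was 0.133 without mouse 1. In the control mice 2 clock genes rose (median 0.12). Collection time is not among the labels used here.

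Imprinted genes of the hypothalamus gave 4 higher and 2 lower of 19 tested. Usp29, a paternally expressed ubiquitin protease next to Peg3, was at 86.5, 72.5, 91.9 and 86.7 FPKM in the inputs and 295, 143, 256 and 182 FPKM in the IPs, without overlap, and rose by 1.31 (adjusted p = 0.00117, limma). Ube3a, the ubiquitin ligase expressed from the maternal copy in neurons, rose by 1.12, but its locus lies opposite the long noncoding Snhg14, and whether the counting used strand is not given in the sources used here. Igf2, an insulin-like growth factor of meninges and choroid plexus, fell by 1.53 (adjusted p = 0.0329, limma), a call that ended without mouse 3, 4 or 5 (0.0803, 0.114 and 0.118). Chromatin genes gave 7 higher and 1 lower of 64 (median 0.28), where 10.3% of all genes tested were called in either direction. Their median transcript length, 8410 bases, lies in the longest decile of protein-coding genes, of which 11.3% were called higher. Kmt2e, a histone methyltransferase relative, was at 55.3, 78.6, 47.2 and 60.3 FPKM in the inputs and 127, 149, 102 and 111 FPKM in the IPs, without overlap, and rose by 1.01 (adjusted p = 0.00151, limma). Atrx, a remodeller of repeat chromatin, rose by 1.06, and without mouse 1 its adjusted p was 0.0757. With mice 1, 3, 4 and 5 left out, 3, 3, 3 and 4 chromatin genes were called higher. Other large gains were those of Zc3h13, part of the complex that writes N6-methyladenosine, by 1.83, Hivep2, a zinc-finger factor, by 1.62, Fam13b, a GTPase-activating protein, by 1.58, and Rbm39, a splicing factor, by 1.43; each was called with every mouse left out. So were Exoc3l, a relative of an exocyst subunit, up by 1.59, and Tmem178b, a membrane protein, by 1.43. Auts2, a neuronal partner of Polycomb complexes, rose by 1.80 (adjusted p = 0.0352, limma) but missed the filter without mouse 3, 4 or 5, and Nav1, a microtubule-binding protein of growing axons, rose by 1.59 and was not called without mouse 4 (0.0533). Zeb2os, the antisense RNA of the transcription factor gene Zeb2, rose by 2.13 on the fit although it was lower in the IP of mouse 3, and it was called with no mouse left out; without strand its reads cannot be told apart from those of Zeb2.

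Cytosolic chaperones and enzymes of glycolysis also rose in part. Of 32 chaperones, 6 rose and none fell (median 0.18), among them Hspa8, the constitutive HSP70, by 0.67, Dnaja1, its co-chaperone, by 0.67, and Hspa5, the HSP70 of the endoplasmic reticulum, by 0.73. Hspa8 was at 454, 473, 631 and 536 FPKM in the inputs and 712, 811, 1014 and 785 FPKM in the IPs, with no overlap (adjusted p = 0.00975, limma). Without mice 1, 3, 4 and 5 the list held 6, 1, 0 and 2 calls, and Hspa8 was not called without mouse 3 or 4 (0.0518 and 0.0514). In the control mice 6 chaperones rose, with Hspa8 at 0.72. Among the most abundant genes that rose were also Armcx5, an armadillo-repeat protein whose locus overlaps Gprasp1 on the same strand, by 1.15, Gnao1, the main G protein alpha subunit of brain, by 0.85, Atp6v1a, a subunit of the vesicular proton pump, by 0.67, Ckb, the brain creatine kinase, by 0.61, and the adaptor proteins Ywhab and Ywhaz by 0.52 and 0.50. Of these 6, Armcx5 was called with each mouse left out, Gnao1 was lost without mouse 1 or 3 (0.0516 and 0.0543), Atp6v1a without mouse 3, 4 or 5 (up to 0.0714), Ckb without mouse 1, 3 or 4 (up to 0.108), and Ywhab and Ywhaz without any single mouse (up to 0.153 and 0.131). Glycolytic enzymes gave 4 higher of 21, including Pkm, the last enzyme of the pathway, by 0.62 and Eno1, which acts just before it, by 0.66; Pkm was not called without mouse 3 (0.0606) and Eno1 without mouse 1, 3 or 5 (0.0532, 0.068 and 0.0614). Without mice 1, 3, 4 and 5, 1, 0, 2 and 2 glycolytic enzymes were called higher. None of 17 genes of the integrated stress response was called, and 1 of 31 proteasome subunits rose.

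Genes of the pathway that phosphorylates S6 moved in both directions. Of 40 genes tested, 2 rose and 5 fell (median −0.06), where 10.3% of all genes were called. Rragb, a Rag GTPase that brings mTORC1 to the lysosome when amino acids are present, was at 61.3, 42.7, 64.4 and 75.1 FPKM in the inputs and 163, 109, 158 and 103 FPKM in the IPs, without overlap, and rose by 1.12 (adjusted p = 0.00449, limma). Lamtor1, the lysosomal anchor of the Rag GTPases, was at 54.6, 20.8, 31 and 38.6 FPKM in the inputs and 14, 14.6, 16.3 and 14.6 FPKM in the IPs, and fell by 1.15 (adjusted p = 0.0122, limma; 0.0544 without mouse 1). Lamtor5 of the same anchor complex fell by 0.65 and Ulk1, the autophagy kinase that mTORC1 inhibits, by 0.67. Ulk1 was not called without any single mouse (adjusted p of 0.0636 to 0.109, limma), and Lamtor5 was called without mouse 5 alone (0.0376). With mice 1, 3, 4 and 5 left out, 1, 2, 2 and 4 of these genes were called lower. The S6 kinase Rps6kb1 was not called (log2 fold change −0.41, adjusted p = 0.152, limma).

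Markers of the neurons of the arcuate nucleus were present, and few differed between the fractions. None of 11 genes of AgRP neurons, 9 of POMC neurons or 7 of kisspeptin and tachykinin neurons passed the test. Npy, the hunger peptide of AgRP neurons, was at 76.2, 20.3, 22.1 and 5.53 FPKM in the inputs and 137, 38.7, 48.8 and 5.3 FPKM in the IPs, with a log2 fold change of 0.70 (adjusted p = 0.0549, limma); without mouse 5 alone it passed (0.0135). Pmch, the precursor of MCH, was at 304, 46.8, 241 and 105 FPKM in the inputs and 301, 61.4, 424 and 329.6 FPKM in the IPs. Its libraries of either fraction were spread widely between mice, and it was not called (0.71, adjusted p = 0.0817, limma). Ghrh, the growth hormone-releasing peptide made by arcuate neurons, was at 3.12, 7.94, 4.3 and 3.88 FPKM in the inputs and 8.72, 11.5, 16 and 10.9 FPKM in the IPs. All IPs lay above all inputs and it rose by 1.17 (adjusted p = 0.0159, limma), a call that ended without mouse 1, 4 or 5 (0.0657, 0.0671 and 0.0595).

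The peptides of the magnocellular neurons, whose axons run through the median eminence, were lower in the IP. Oxt, oxytocin, was at 77.4, 25.3, 55.6 and 44.2 FPKM in the inputs of mice 1, 3, 4 and 5 and 22.9, 14.9, 30.7 and 21.6 FPKM in the IPs. Avp, vasopressin, was at 103, 65.6, 96.7 and 45.3 FPKM in the inputs and 42.3, 53.5, 73.5 and 14.1 FPKM in the IPs. The groups overlapped because the mice differed several-fold, but each IP was below its own input, and they fell by 1.07 (adjusted p = 0.00767, limma) and 0.89 (0.0333). Without mouse 1 or 5, Avp was not called (0.142 and 0.105). In the control mice, none of the 12 tested genes of the list of other arcuate peptides, which includes Oxt and Avp, was called (median 0.31). Gad1, which makes GABA, rose by 0.52 and Thrb, a thyroid hormone receptor, by 0.79, and each was called without mouse 5 and in no other fit with a mouse left out (adjusted p of up to 0.157 and 0.16, limma). Mchr1, the MCH receptor, had a log2 fold change of 0.41, Agrp, the antagonist peptide of AgRP neurons, 0.37, Pomc, the precursor of the satiety peptide alpha-MSH, −0.67, and Chrm3, the muscarinic receptor from which hM3Dq was made, 0.45. Vegfa, a vascular growth factor of tanycytes, stood at −0.07, and Plvap, of fenestrated capillaries, at 0.69. None of these 6 passed the test (adjusted p of 0.152 to 0.925, limma), Agrp and Vegfa changed sign without 1 mouse, and Npas4 and Chrm1 did not reach the filter. In bulk tissue, fewer pulled-down cells of a type and less RNA per cell cannot be told apart.

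Some myelin genes fell in the IP. Of 13 oligodendrocyte genes, 4 fell and none rose (median −0.59), and none had IP and input values that did not overlap. With mice 1, 3, 4 and 5 left out, 2, 2, 3 and 2 fell, at medians of −0.40, −0.51, −0.66 and −0.26. Mobp, a myelin protein, was at 106, 220.3, 105 and 140.0 FPKM in the inputs and 41.7, 115, 66.4 and 74.6 FPKM in the IPs, lower in each mouse's IP, and fell by 0.95 (adjusted p = 0.00377, limma). Mbp, whose mRNA is carried into the myelin sheath and translated there, fell by 0.73 and Mog, on the outer myelin surface, by 0.97. Mog was not called without any single mouse (adjusted p of 0.0595 to 0.0921, limma). The summed FPKM of the tested oligodendrocyte genes ranged from 751 to 1885 in the inputs and from 438 to 1398 in the IPs, with median log2 IP over input of −0.64, −0.12, −0.17 and −0.87 in mice 1, 3, 4 and 5. None of 15 astrocyte genes (median −0.09), 11 tanycyte genes (0.31) or 5 ependymal genes passed the test. Among 12 microglial genes, Tyrobp, a signalling adaptor, fell by 0.89 (adjusted p = 0.00839, limma) and none rose. Pdgfra, the receptor that marks oligodendrocyte precursors, rose by 0.92 but was not called without any single mouse (adjusted p of 0.0636 to 0.16, limma), and the other 7 genes of that list tested were not called. The defining markers of endothelial cells and tanycytes, Cldn5, Pecam1 and Rax, did not reach the filter, and 2 of 13 endothelial genes were tested. Hbb-bs, a haemoglobin chain of red blood cells, rose by 0.93 (adjusted p = 0.0398, limma) and was not called without mouse 1 or 3 (0.152 and 0.152). The summed FPKM of the 5 erythroid genes was 54.1 to 90 in the inputs and 87 to 179 in the IPs. The part of other cell types in the gains and losses above was not tested.

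**Figure D4:**
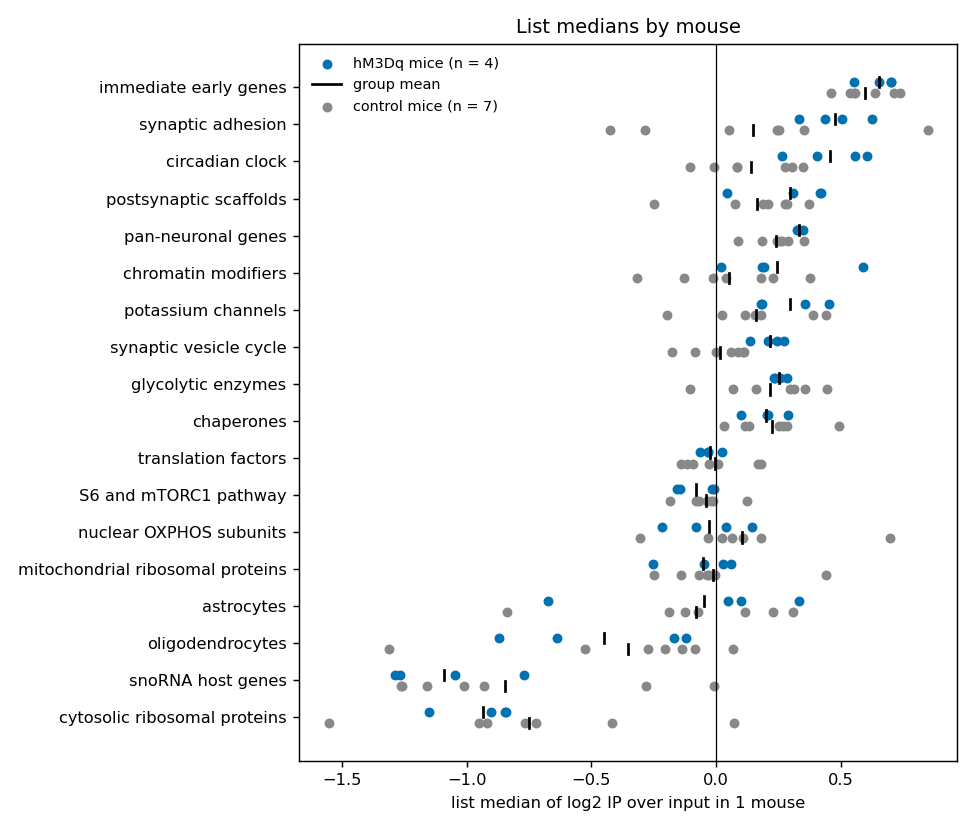
Median log2 IP over input of selected gene lists in each of the 4 hM3Dq mice and the 7 control mice, 1 point per mouse (blue hM3Dq, grey control) with black bars at the group means. Ribosomal protein medians lie at −1.15 to −0.84 in hM3Dq mice and −1.55 to 0.07 in control mice, and immediate early gene medians at 0.55 to 0.70 and 0.46 to 0.74.

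The lists were alike between mice to different degrees. The median log2 IP over input of the ribosomal protein mRNAs was −0.90, −0.85, −1.15 and −0.84 in mice 1, 3, 4 and 5, that of the mitochondrial mRNAs −5.66 ± 0.46 (mean ± SD, n = 4), and that of the immediate early genes 0.65, 0.70, 0.55 and 0.70. For the adhesion genes it was 0.63, 0.50, 0.44 and 0.33 and for the potassium channels 0.45, 0.36, 0.18 and 0.19. Over all tested genes, log2 IP over input correlated between pairs of hM3Dq mice with r of 0.394 to 0.457 (6 pairs, across genes, which are not independent replicates).

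Gains and losses were also ordered by transcript length. Among 11413 protein-coding genes, 20 in the decile of shortest transcripts rose and 143 fell, whereas 129 in the longest decile rose and 21 fell. Spearman's rho across genes between the log2 fold change and the transcript length was 0.207, and 0.194 without ribosomal protein and mitochondrial genes. By mouse it was 0.305, 0.0435, 0.0893 and 0.195 in mice 1, 3, 4 and 5, highest in mouse 1 and lowest in mouse 3. In the 7 control mice it ran from −0.263 to 0.148. The genes in these correlations share libraries and their depth. The median transcript length was 6564 bases for the adhesion genes, 6274 for the scaffolds, 5046 for the potassium channels, 8410 for the chromatin genes, 2993 for the immediate early genes and 1100 for the ribosomal proteins, against 3261 for all genes tested. The part of length in the counts of these lists was not tested.

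**Figure D5:**
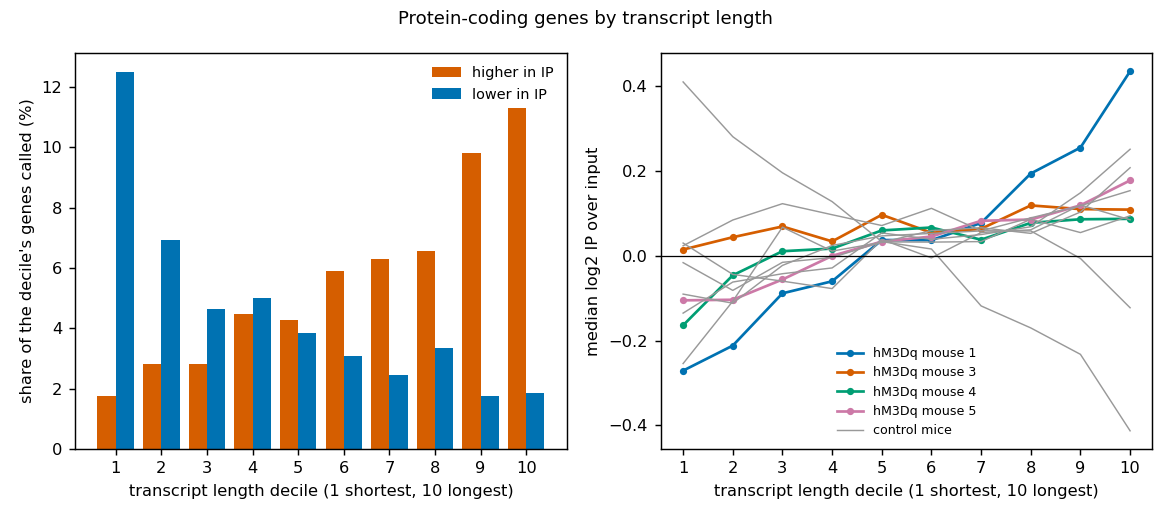
Share of protein-coding genes called higher or lower in the IP of hM3Dq mice, by decile of transcript length from the shortest to the longest (left), and the median log2 IP over input of each decile, 1 line per mouse, in colour for hM3Dq and grey for control mice (right). Genes called lower make up 12.5% of the shortest decile and 1.84% of the longest, and genes called higher 1.75% and 11.3%.

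The control mice, which share no library with the hM3Dq mice, gave the same direction for most called genes. Of the 702 genes that rose in hM3Dq mice, 681 had a log2 fold change above 0 in control mice and 194 were called higher there, at a median of 0.52 against 0.80 in hM3Dq mice. Of 635 genes that fell and were tested in both, 609 were below 0 in control mice and 282 were called lower, at a median of −0.74 against −0.96. These genes were selected by their hM3Dq values, so the paired medians do not measure a difference between genotypes. No gene was called in opposite directions. Whether the IP over input difference depended on genotype was tested for 14582 genes, and 0.0% were called (limma on the difference per mouse, 4 against 7 mice, two-sided), with 448 at an unadjusted p under 0.05 and a lowest adjusted p of 0.908. Of the genes called in hM3Dq mice, those with the lowest p in that test included Rps27l, a relative of the ribosomal protein Rps27 induced by p53, which was at 24.8, 19.8, 18.5 and 17 FPKM in the inputs and 12.5, 6.49, 5.21 and 7.5 FPKM in the IPs of the hM3Dq mice. Rps27l fell by 1.29 in hM3Dq mice (adjusted p = 0.00411, limma) and its log2 fold change in control mice was 0.34, but the difference did not pass (adjusted p = 0.999). Asb6, a ubiquitin ligase adaptor, rose by 0.97 in hM3Dq mice against −0.41 in control mice, with the same outcome (0.999), and its call in hM3Dq mice ended without any single mouse (0.0688 to 0.128). A difference between genotypes below what 4 and 7 mice can show would not have been detected.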

How the data were processed

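The authors deposited 1 table of normalized FPKM for 17440 genes, with a column for each of the 22 libraries. Reads were processed with HISAT2 2.1.0, StringTie 1.3.4d and the build GRCm38.p6, per the submitters' processing notes; the library kit, strand, normalization and annotation release are not given in the sources used here. FPKM are not counts, the read depth is unknown, and no count model was used. 11 columns of per-mouse ratios in the deposited table were not used.

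Columns were assigned to mice by the tag in the library titles. The IP and the input of a mouse come from 1 homogenate, per the labels' protocols, which is where the pairing comes from. Genes with at least 1 FPKM in 4 or more of the 8 hM3Dq libraries were tested on log2(FPKM + 1) with limma 3.58.1 in R 4.3.3 (lmFit, eBayes with an intensity trend, mouse as a block, two-sided, Benjamini-Hochberg adjusted p under 0.05 over all genes tested), and fold changes are on that scale, which understates those of low genes. Control mice were tested likewise over their 14 libraries, and the difference between genotypes on log2 IP over input per mouse. The procedure was tested on simulated data. Summaries and figures used Python 3.11.15, pandas 2.3.3 and matplotlib 3.10.9.

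Coordinates, transcript lengths and overlaps came from GENCODE release 21 (17435 of 17440 identifiers matched), and start and promoter sequences from RefSeq on GRCm38.p6. The 52 gene lists (1224 genes), the tests and the rule for named genes were chosen with earlier results of these data known. The rule allowed the 15 called genes of largest change in each direction, the 10 most abundant called genes in each direction, up to 6 called and 3 uncalled members of each list, 18 genes fixed by name and the 5 called genes of lowest p between genotypes, without provisional symbols; genes named outside it are marked. Pseudocounts of 0.1 and 5, other filters, no trend, other scalings, no mouse block, 1 fit of all libraries and each mouse left out were tried.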

Additional observations from a re-analysis of the deposited data

Results flagged for a closer look

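In sets of 4 mice or libraries, 115 were checked for a single value far from the other 3 with a test at the 95% level, so a few such sets arise by chance. The median log2 IP over input of the AgRP neuron genes was 0.20, 0.23, 0.25 and −0.13 in hM3Dq mice 1, 3, 4 and 5, with mouse 5 apart from the rest. For the glutamate receptors it was 0.48, 0.11, 0.10 and 0.16, with mouse 1 above the others, and for interferon and MHC class I genes 0.09, −0.27, −0.26 and −0.22, again with mouse 1 (0.0908) above. The summed FPKM of the IP of mouse 3 was 411367, above the other 3 IPs. The input of mouse 5 correlated with the other inputs at a median r of 0.943, above the 0.921 to 0.923 of the other inputs. Log2 IP over input of Zeb2os was 2.89, −0.54, 2.83 and 3.35, with mouse 3 below 0, and that of Rps6kb1 −0.33, −0.26, −0.74 and −0.30, with mouse 4 lowest.

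Rpp21, a protein subunit of RNase P, had a mean log2 IP over input of −0.61 in the hM3Dq mice, at −0.88, −0.70, −0.60 and −0.28, all below 0. In the 7 control mice it was 2.43, 0.53, 0.09, 1.98, 0.32, 0.50 and 0.71, all above 0. Rpp21 was flagged because these values differed between the genotypes, so their separation is a result of that choice and not a test. The difference between genotypes did not pass the limma test over all genes (adjusted p = 0.999), and the call in hM3Dq mice (adjusted p = 0.0438) ended without any single mouse (0.0573 to 0.161).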

How the results depend on the processing

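The count of genes called in hM3Dq mice, 1338, stayed between 1268 and 1439 with pseudocounts of 0.1 or 5, a filter of 5 FPKM, quantile normalization or median-ratio rescaling. It was 552 without the filter, 592 without the intensity trend, 527 in 1 fit of all 22 libraries and 575 to 836 with 1 mouse left out. Pairing mattered too: with no replicate block it was 739, of which 736 were also called with the block. Fewer samples enter the fits with a mouse left out, and for the other settings the cause was not tested. In control mice the count of 678 became 312 without the trend and 805 with no replicate block. With 1 mouse left out it ranged from 330 to 768, the highest being without control mouse 5. Between genotypes 0 genes were called under each setting, except 1 without hM3Dq replicate 5, so leaving out 1 mouse gave 0 to 1. Of 139 named genes with a fitted value, 127 were called. The pseudocount of 0.1 ended none of these calls, quantile normalization 3, the pseudocount of 5 and median-ratio rescaling 6 each, no replicate block 47, 1 fit of all libraries 50, no trend 51 and no filter 57. No called gene of these changed direction. Among uncalled genes, with 1 mouse left out, Agrp ranged from −0.0168 (without replicate 3) to 0.657 and Vegfa from −0.375 to 0.402 (without replicate 4). With the read depth unknown, the precision of low FPKM could not be set.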

Other observations

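Further lists outside the groups above gave the counts below, where 10.3% of all genes tested were called. Of 16 genes of the glucocorticoid and fasting response, 1 rose and 2 fell, the latter being the metallothioneins Mt1 and Mt2. None of 11 interferon and MHC class I genes was called (median −0.31), nor any of 7 genes of the neighbouring ventromedial nucleus or 7 of tight junctions. Of 8 genes of lateral hypothalamic peptide neurons, none was called either, at a median of 0.23. Among 7 VEGF pathway genes, Vegfb fell by 0.78 (adjusted p = 0.0198, limma), and it was not called without mouse 4 or 5 (0.0618 and 0.0756).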
